A study of Sus scrofa with 8 samples.

Results

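The contractile genes of skeletal and smooth muscle, together with genes of the mural cells that wrap small vessels, were measured in whole biopsies of pig skin. The set was defined by a list of 33 gene symbols, of which 26 named a row in the deposited table of 31907 Ensembl genes. These were 12 of 19 skeletal muscle genes, the intermediate filament gene DES, which both kinds of muscle use, 9 of 9 smooth muscle genes and 4 of 4 mural cell genes. The symbols ACTA1, MYH1, MYH2, MYH4, TTN, MB and RYR1 named no row and were dropped. Skin came from 2 Yorkshire swine with the genotype label WT, pig 13 and pig 14. In each pig 2 sites of a grid drawn on the skin received IL-15 by intradermal injection (ID, 200 ng in 100 µl of saline) and were biopsied whole 3 h later, and 2 other sites, labelled Control, were biopsied without injection. The cytokine IL-15 acts on lymphocytes by way of the kinases JAK1 and JAK3, and the study looked for genes it induces, with which to follow an inhibitor applied to the skin. No site received saline alone, injected sites carried the grid number 12 and control sites 6 or 7, so injection and place on the grid cannot be told apart. Sites of a pig are not separate animals, so p-values measure the spread between sites of these 2 pigs.

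Muscle shortens when the myosin of thick filaments pulls on the actin of thin filaments. In skeletal muscle, calcium released from the sarcoplasmic reticulum binds troponin on the thin filament and uncovers the sites where myosin attaches. Smooth muscle has no troponin, and calcium acts there through calmodulin and myosin light chain kinase, which switches myosin on by phosphorylation. In skin, smooth muscle lies in the walls of arterioles and veins and in the arrector pili muscles of hairs, pericytes wrap capillaries, and a sheet of skeletal muscle, the panniculus carnosus, can lie beneath the fat.

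Of the listed genes, those of smooth muscle were at high levels in skin and those of skeletal muscle at low levels. Levels are CPM, counts scaled to the depth of the library, after scaling between libraries by TMM, which assumes that most genes do not differ. Whole biopsies were sequenced, so a low level can mean few cells of a type or little RNA in each, and these cannot be told apart. Which cells of the biopsies the RNA of the listed genes came from was not tested. The 9 smooth muscle genes summed to between 1349.7 and 1707 CPM per site, the 4 mural genes to between 358 and 522 CPM, and the 12 skeletal genes to between 25.6 and 35.0 CPM. The smooth sum was thus 42.4 to 61.7 times the skeletal sum in each of the 8 biopsies. These ratios hold for the listed genes: on the lists of further genes described later, 35 other sarcomere genes summed to 289 to 357 CPM per site, 25 genes of muscle calcium and energy supply to 273 to 524 CPM and 35 other smooth muscle genes to 4038 to 5253 CPM. Levels of different genes can be roughly compared per kilobase of annotated exon. The length is that of all merged exons, so a gene with more annotated exon than its transcripts use reads low. The median over genes was 33.3 CPM per kilobase for smooth, 6.88 for mural and 0.371 for skeletal genes. The highest skeletal gene, TNNI2, had 4.38 CPM per kilobase, above the lowest smooth gene, LMOD1, at 2.68 CPM per kilobase. ACTA2 and TAGLN, at 134 and 129.6 CPM per kilobase, stood above 98.6% and 98.6% of the 19862 genes tested, and the lowest smooth gene, LMOD1, above 47.8%. Skeletal genes ran from TNNI2, above 58.5%, TNNC2, above 42.1%, ATP2A1, above 38.5%, and CKM, above 29.4%, down to TNNT3, above 0.292%, and MYL1, which was too low to test.

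**Figure D1:**
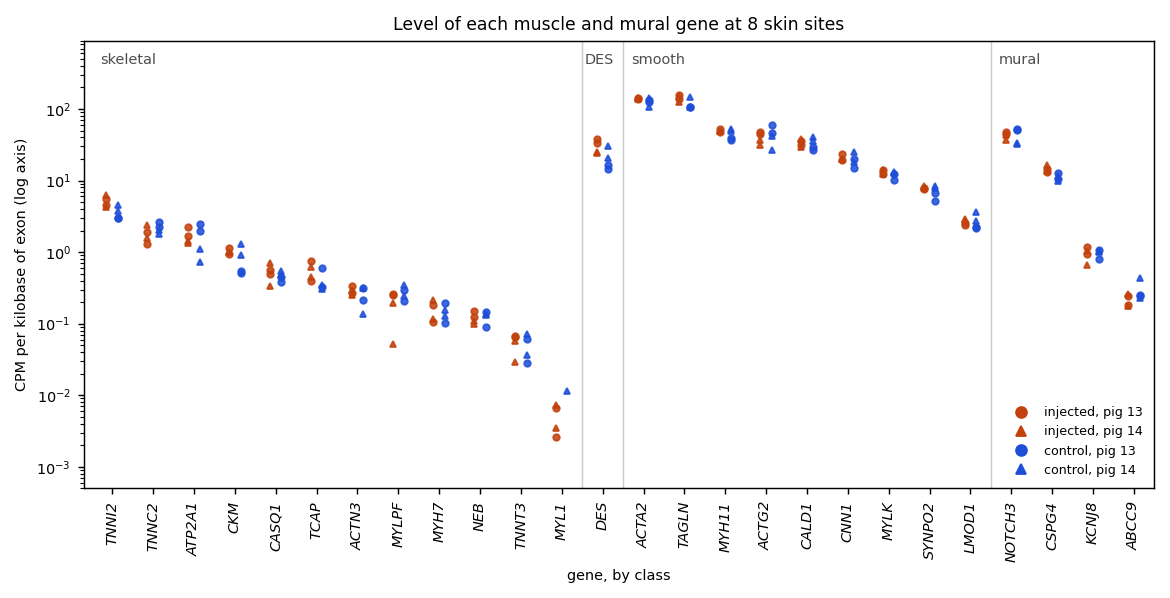
Level of each of the 26 genes in CPM per kilobase of exon (log axis), with injected sites in orange, control sites in blue, circles for pig 13 and triangles for pig 14; sites with 0 counts of MYL1 are not drawn. Smooth muscle genes run from 2.68 to 134 CPM per kilobase on average and skeletal genes from 0.00392 to 4.38.

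The 5 skeletal genes highest per kilobase were TNNI2, TNNC2, ATP2A1, CKM and CASQ1. TNNT3, the third troponin subunit listed, was the lowest apart from MYL1, at 0.0521 CPM per kilobase. Its merged exons come to 9537 bases, and without division by length it averaged 0.497 CPM, above MYLPF at 0.305 CPM. In each list of 8 values, injected sites are given in the order 12c and 12e of pig 13, then 12c and 12d of pig 14, and control sites in the order 6b and 7b of pig 13, then 6b and 7e of pig 14. TNNI2, the inhibitory troponin of fast fibres (ENSSSCG00000033260, chromosome 2, 1251527 to 1253893), was at 5.17, 4.34, 4.01 and 5.95 CPM at injected sites and 2.87, 2.87, 3.59 and 4.38 CPM at control sites. In pig 13 both injected values lay above both controls, and in pig 14 the pairs overlapped. TNNC2, the calcium-binding troponin of fast fibres (ENSSSCG00000007424, chromosome 17, 48024685 to 48028638), was at 2.07, 3.12, 3.86 and 2.56 CPM at injected sites and 4.23, 3.63, 2.86 and 3.25 CPM at control sites. The groups overlapped, with the lowest value at an injected and the highest at a control site of pig 13. ATP2A1, the calcium pump of the sarcoplasmic reticulum in fast fibres (ENSSSCG00000007805, chromosome 3, 18547976 to 18568313), was at 7.03, 9.46, 5.99 and 5.54 CPM at injected sites and 10.2, 8.17, 3.02 and 4.66 CPM at control sites. Every site of pig 13 lay above every site of pig 14. CKM, the muscle creatine kinase that restores ATP (ENSSSCG00000036132, chromosome 6, 51699165 to 51714813), was at 7.19, 6.01, 6.51 and 6.50 CPM at injected sites and 3.26, 3.52, 8.32 and 5.86 CPM at control sites. Both controls of pig 13 were the lowest of the 8, at 3.26 and 3.52 CPM. CASQ1, which stores calcium in the reticulum (ENSSSCG00000006390, chromosome 4, 90276754 to 90288011), was at 1.41, 1.25, 1.77 and 0.865 CPM at injected sites and 1.15, 0.983, 1.37 and 1.20 CPM at control sites, with overlapping groups and with both extremes at injected sites of pig 14.

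The other skeletal genes were lower still per kilobase. Without division by length, MYH7 and NEB averaged 2.96 and 2.84 CPM, above CASQ1 at 1.25 CPM. The slow myosin heavy chain MYH7 had 67 to 126 counts per biopsy, the thin filament ruler NEB 66 to 111, the fast fibre alpha-actinin ACTN3 17 to 50, the titin cap TCAP 12 to 35, the fast troponin T TNNT3 8 to 24 and the regulatory light chain MYLPF 2 to 13. The alkali light chain MYL1 (ENSSSCG00000016157, chromosome 15, 113034279 to 113063231) had 0 to 3 counts. It was at 0 in 3 of the 4 controls, where 0 counts leave room for up to 0.0819 to 0.106 CPM by counting error alone. MYL1 was the only member too low to test. Of the dropped symbols, a row with no symbol carries the gene identifier of ACTA1, the alpha-actin of skeletal muscle (ENSSSCG00000010190), and had 39 to 89 counts per biopsy. Another row (ENSSSCG00000029441) carries the identifiers of the fast myosin heavy chains MYH1, MYH2 and MYH4 together and had 23 to 52 counts. Per kilobase they had 0.438 and 0.0665 CPM, within the range of the named skeletal genes, and neither is counted among the 26. Their log2 fold changes, injected against control, were -0.11 ± 0.29 and -0.48 ± 0.26 (SE). Levels of CKM and ACTN3 are uncertain, since 20.5% and 21.0% of their exonic bases also belong to MARK4 and CTSF on the opposite strand, which are more abundant (45.9 and 49.8 CPM). TCAP shares 27.7% of its exonic bases with STARD3 on the same strand (0.799 CPM). MYH7 shares 27.0% with CMTM5 on the opposite strand (0.390 CPM), so the levels of TCAP and MYH7 are uncertain too. The strand setting of the counting is not given here.

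Smooth muscle genes were detected at every site, and the highest value of a gene was at most 2.22 times its lowest, in ACTG2. ACTA2, the alpha-actin of vascular smooth muscle (ENSSSCG00000010447, chromosome 14, 100867733 to 100886713), was at 298, 287, 295 and 285 CPM at injected sites and 257, 280.0, 224 and 296 CPM at control sites. Of the controls, 3 lay below the narrow range of the injected sites and 1 within it. TAGLN, the actin-binding protein SM22 (ENSSSCG00000015073, chromosome 9, 44560785 to 44567385), was at 275, 308, 247 and 301 CPM at injected sites and 209.6, 209.8, 212 and 293 CPM at control sites. The control of pig 14 at site 7e was as high as injected sites, and the other controls were the lowest values. MYH11, the smooth muscle myosin heavy chain (ENSSSCG00000000146, chromosome 3, 7002733 to 7143094), was at 446, 400.1, 414 and 414 CPM at injected sites and 334, 308, 436 and 420.3 CPM at control sites. Only the controls of pig 13 lay below the injected range. ACTG2, the gamma-actin of visceral smooth muscle (ENSSSCG00000008294, chromosome 3, 69096782 to 69121349), was at 102, 108, 85.5 and 72.5 CPM at injected sites and 106, 136, 61.0 and 95.4 CPM at control sites, and its values in pig 13 all exceeded those in pig 14. CALD1, caldesmon, which restrains myosin on actin (ENSSSCG00000016535, chromosome 18, 14267955 to 14539017), was at 243, 215, 201 and 262 CPM at injected sites and 184, 204, 246 and 285 CPM at control sites. The highest and the lowest of its values were both at control sites. SYNPO2, an actin-bundling protein of the Z-disc and dense bodies (ENSSSCG00000009111, chromosome 8, 104677580 to 104873791), was at 97.0, 93.3, 95.5 and 103 CPM at injected sites and 81.0, 63.1, 95.9 and 102 CPM at control sites, with the lowest value at site 7b of pig 13. That biopsy was the lowest of the 8 in 5 of the 9 smooth genes, namely MYH11, CNN1, MYLK, SYNPO2 and LMOD1. The calponin CNN1 ran from 43.4 to 74.4 CPM, the light chain kinase MYLK from 98.3 to 135 CPM and the filament-nucleating leiomodin LMOD1 from 7.95 to 13.3 CPM. LMOD1 shares 46.5% of its exonic bases with SHISA4 on the opposite strand (37.8 CPM), so its level is uncertain.

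The mural genes spanned a wide range of levels. NOTCH3, the Notch receptor of mural cells (ENSSSCG00000025176, chromosome 2, 62364501 to 62402344), was at 359, 380.2, 350.0 and 299.8 CPM at injected sites and 414, 422, 269.7 and 259 CPM at control sites. All values of pig 13 lay above those of pig 14. NOTCH3 averaged 344 CPM against 102 CPM for CSPG4, and so made up most of the mural sum. Sums of the 22 other mural genes described later were likewise highest at site 7b of pig 13, as were sums of basal and of differentiated keratinocyte markers. Other mural genes ran from 963 to 1163 CPM in pig 13 and from 948 to 1013 CPM in pig 14. Basal keratinocyte markers ran from 13662 to 22195 CPM in pig 13 and from 7642 to 14349 CPM in pig 14. The parts of mural cells and of keratinocytes in the level and differences of NOTCH3 were not tested. CSPG4, the proteoglycan NG2 of pericytes (ENSSSCG00000001873, chromosome 7, 57949455 to 57988337), was at 103, 116, 132 and 109.9 CPM at injected sites and 101, 84.6, 77.7 and 91.1 CPM at control sites. Its 4 injected values all lay above its 4 control values, by 103 against 101 CPM at the nearest pair. ABCC9, the sulfonylurea receptor subunit of the vascular potassium channel (ENSSSCG00000000571, chromosome 5, 51536526 to 51673583), was at 1.67, 2.23, 2.39 and 1.63 CPM at injected sites and 2.30, 2.27, 4.05 and 2.08 CPM at control sites. The control of pig 14 at site 6b stood above the other values. KCNJ8, the pore of that channel, ran from 4.34 to 7.56 CPM. Both genes lie on chromosome 5 on the same strand and share 4616 exonic bases in the annotation. These are 70.8% of the exonic bases of KCNJ8 and 50.1% of those of ABCC9. How reads in shared bases were counted is not given here, so both levels and the mural median per kilobase are uncertain.

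**Figure D2:**
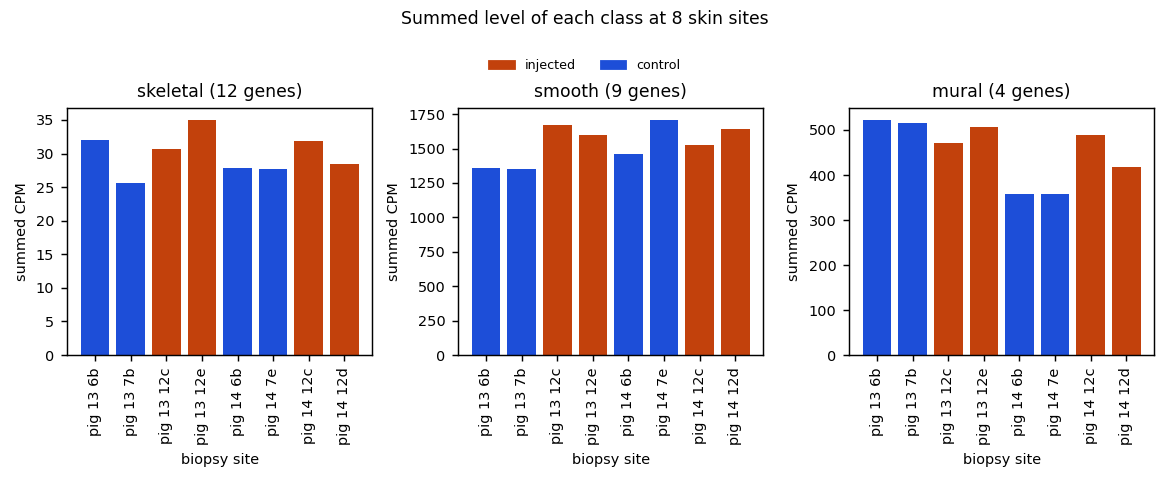
Summed CPM of the 12 skeletal, 9 smooth and 4 mural genes at each of the 8 biopsy sites, injected in orange and control in blue, each panel with its own axis from 0. The smooth sum was lowest at the 2 control sites of pig 13 (1357 and 1349.7 CPM) and the mural sum at those of pig 14 (358 and 359 CPM).

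Injected and control sites were compared to ask whether IL-15 was followed within 3 h by a change in these genes, and no member passed the test. The fit was edgeR's quasi-likelihood test over 19862 genes with pig in the model, and calls were made below 0.05 after Benjamini-Hochberg adjustment over those genes. Of the 25 members tested, 0 were called, against 0.0352% of all genes tested, and DESeq2 also called 0 of them, against 0.31%. At an unadjusted p under 0.05 there were 2, CSPG4 and TNNI2, or 8.00% of the members against 4.54% of all genes. CSPG4 had 115 ± 12.0 CPM at injected and 88.5 ± 9.75 CPM at control sites (SD, n = 4), a log2 fold change of 0.38 ± 0.11 (SE, adjusted p = 0.895 by edgeR). It was the only member whose groups did not overlap, which is 4.00% of 25 against 2.07% of all genes. TNNI2 had 4.87 ± 0.873 CPM at injected and 3.43 ± 0.720 CPM at control sites (SD, n = 4), a log2 fold change of 0.53 ± 0.19 (SE, adjusted p = 0.964 by edgeR). Among the cell types that share vessels with pericytes, endothelial markers had values above 0 in 10 of 12 genes, with a median of 0.083 and sums of 884 to 1243 CPM at injected and 799 to 1067 CPM at control sites. The venule receptor ACKR1 and the junction gene CLDN5 had 0.56 ± 0.091 and 0.62 ± 0.15 (SE, adjusted p = 0.173 and 0.733 by edgeR). EdgeR called 0 of the 12 endothelial markers, and DESeq2 called 1 (adjusted p = 0.000386 by DESeq2). The part of the endothelial markers in the difference of CSPG4 was not tested.

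The median changes of skeletal and smooth muscle genes were both slightly above 0. Skeletal genes had a median log2 fold change of 0.18 (11 tested, from -0.53 for MYLPF to 0.53 for TNNI2), smooth genes of 0.13 (9 tested, from -0.094 for ACTG2 to 0.30 for TAGLN) and mural genes of 0.0059 (4 tested, from -0.42 for ABCC9 to 0.38 for CSPG4), beside -0.0078 over all genes tested. Values were above 0 in 8 of 11 skeletal, 8 of 9 smooth and 2 of 4 mural genes, and in 48.2% of all genes. Members of a class come from the same 8 libraries and are not independent observations. Among smooth genes TAGLN had 0.30 ± 0.14, SYNPO2 0.20 ± 0.11, MYH11 0.18 ± 0.12 and ACTA2 0.14 ± 0.11 (SE). ACTA2 had 291 ± 6.01 CPM at injected and 264 ± 31.5 CPM at control sites (SD, n = 4), which overlapped. CKM had 0.41 ± 0.23 and ABCC9 -0.42 ± 0.26, neither of which passed (adjusted p = 0.964 and 0.964 by edgeR). TCAP had 0.51 ± 0.35 and MYLPF -0.53 ± 0.49, on few counts. The remaining skeletal values were -0.27 ± 0.24 for TNNC2, 0.20 ± 0.21 for ATP2A1, 0.18 ± 0.28 for CASQ1, 0.24 ± 0.30 for ACTN3, 0.074 ± 0.29 for MYH7, -0.079 ± 0.22 for NEB and 0.15 ± 0.43 for TNNT3. CNN1 had 0.091 ± 0.15, MYLK 0.13 ± 0.10, CALD1 0.02 ± 0.13, LMOD1 0.0012 ± 0.14, NOTCH3 0.06 ± 0.12 and KCNJ8 -0.048 ± 0.19. Summed, smooth genes were at 1610.3 ± 63.0 CPM at injected and 1468 ± 167 CPM at control sites, and skeletal genes at 31.5 ± 2.71 and 28.3 ± 2.66 CPM (SD, n = 4). The groups overlapped in both sums. Markers of some other cell types had medians farther from 0 between the same groups: adipocyte markers had a median of 0.82 with 9 of 9 above 0, and hair follicle markers 0.36 with 8 of 8, and 0 of both had an unadjusted p under 0.05 by edgeR. Differentiated keratinocyte markers had -0.46 with 0 of 8 above 0 and 4 lower at an unadjusted p under 0.05. EdgeR called 0 and DESeq2 0 genes of these 3 lists, and their part in the muscle medians was not tested.

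**Figure D3:**
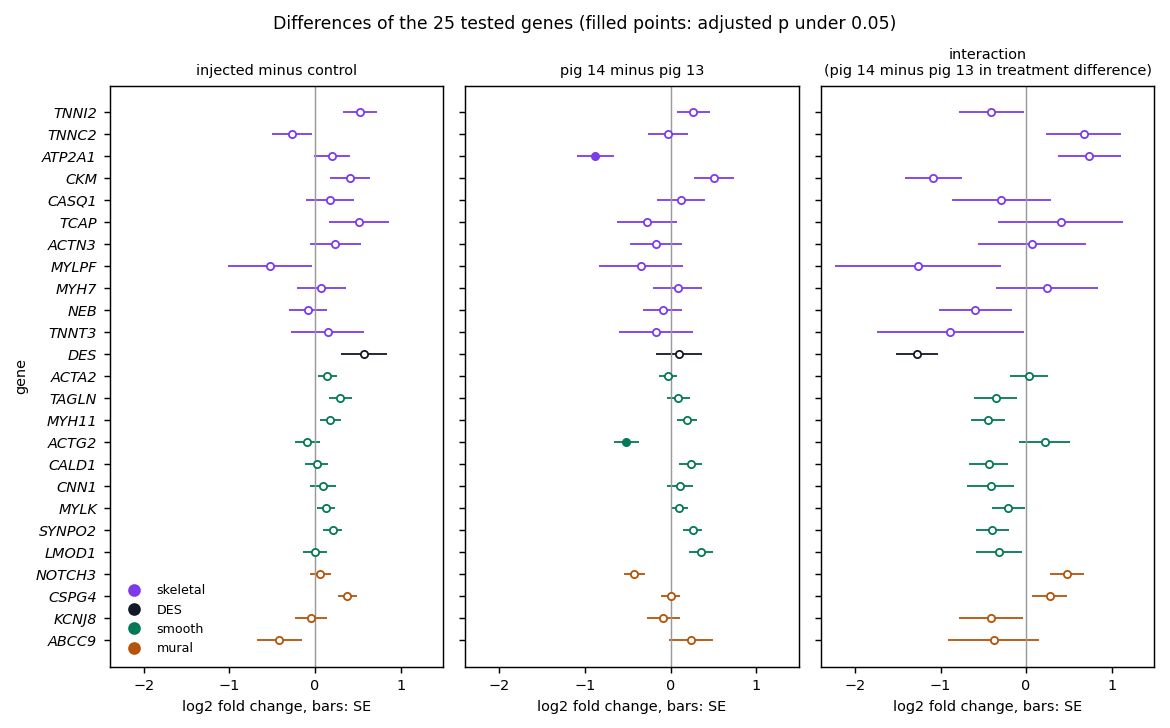
Log2 fold change with its SE for the 25 tested genes, as injected minus control (left), pig 14 minus pig 13 (middle) and the difference of the treatment change between the pigs (right), coloured by class, with filled points for calls. The filled points are those of ATP2A1 and ACTG2 in the middle panel.

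DES had the smallest p among members for a treatment difference that was unequal in the 2 animals. Desmin, its product, links the contractile units of a muscle cell to each other and to the membrane (ENSSSCG00000020785, chromosome 15, 121427103 to 121435424). DES was at 128, 112, 83.4 and 81.3 CPM at injected sites and 48.5, 55.0, 103 and 70.3 CPM at control sites. In pig 13 both injected sites were above all other values and both controls below all others. In pig 14 the injected sites lay between the 2 controls. The log2 fold change was 1.21 ± 0.17 in pig 13, or 2.31-fold (SE, adjusted p = 0.0893 by edgeR), and -0.069 ± 0.17 in pig 14, and the mean over both was 0.57 ± 0.27 (SE). The interaction of pig and treatment, which compares these 2 animals only, was -1.28 ± 0.24 for DES (SE, unadjusted p = 0.00041, adjusted p = 0.388 by edgeR). DESeq2 called it with an adjusted p of 0.00990. It lay between -1.50 and -0.96 when each biopsy was left out in turn, with the value nearest to 0 without site 6b of pig 14. Sums of several lists had the same order in pig 13 and overlapped in pig 14. Adipocyte markers were at 2392 and 2777 CPM at injected against 765 and 800.1 CPM at control sites of pig 13. In pig 14 they were at 827 and 3269 against 1872 and 3659 CPM. In pig 13 fibroblast markers were at 113722 and 82272 against 81146 and 22572 CPM. Other smooth muscle genes were at 4444 and 4764 against 4038 and 4082 CPM there. Sweat gland markers had the opposite order in pig 13, at 142 and 127 against 202 and 160 CPM. Whether the depth or makeup of the biopsies had a part in DES was not tested.

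An unadjusted interaction p under 0.05 was also found for MYH11, CKM and NOTCH3. MYH11 had 0.40 ± 0.14 in pig 13 and -0.046 ± 0.14 in pig 14 (interaction -0.45 ± 0.20, adjusted p = 0.603 by edgeR). CKM had 0.96 ± 0.24 and -0.12 ± 0.23, with an interaction of -1.08 ± 0.33 (adjusted p = 0.486 by edgeR). NOTCH3 went the other way, with -0.18 ± 0.14 and 0.30 ± 0.14 (interaction 0.48 ± 0.20, adjusted p = 0.586 by edgeR), since both injected sites were below both controls in pig 13 and above both in pig 14. The median change of the 9 smooth genes was 0.24 in pig 13 and 0.0074 in pig 14. Their interaction was below 0 in 7 of 9, against 9985 of all 19862 genes tested. Its median was -0.36 over the smooth genes, beside -0.0031 over all genes. By edgeR 0 of 25 members had a called interaction, against 0.0% of all genes, and 4 had an unadjusted p under 0.05, or 16.0% against 8.22%. DESeq2 called DES alone, against 0.512% of all genes with an adjusted p.

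**Figure D4:**
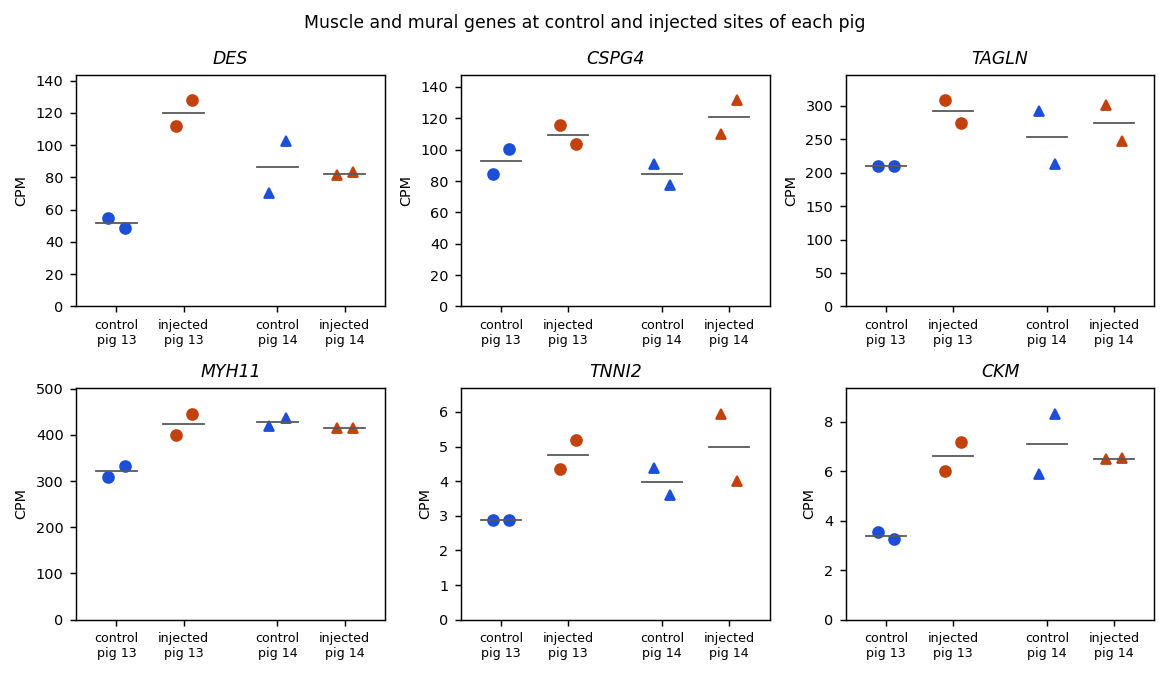
CPM of 6 genes at control (blue) and injected (orange) sites of pig 13 (circles) and pig 14 (triangles), with the mean of each pair as a line and axes from 0. For DES the pig 13 pairs sit at 48.5 and 55.0 against 112 and 128 CPM, while the pig 14 pairs overlap.

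The 2 animals differed in ATP2A1 and ACTG2. ATP2A1 was lower in pig 14, at 4.80 ± 1.31 CPM against 8.72 ± 1.41 CPM in pig 13 (SD, n = 4 sites), a log2 difference of -0.88 ± 0.21 (SE, adjusted p = 0.0266 by edgeR). ACTG2 was at 78.6 ± 15.0 against 113 ± 15.3 CPM, a difference of -0.52 ± 0.15 (SE, adjusted p = 0.0486 by edgeR). These calls were 2 of 25 members, or 8.00%, against 10.7% of all genes, so the share was not above the background. An unadjusted p under 0.05 was found for 5 of 25, or 20%, against 26.7%. DESeq2 called 3 of 25 members, against 15.8% of all genes. NOTCH3, with -0.42 ± 0.12, did not pass in edgeR (adjusted p = 0.0543) and was called by DESeq2 (adjusted p = 0.0132). LMOD1 had 0.35 ± 0.14 (adjusted p = 0.133 by edgeR), and its values in pig 14 all lay above those in pig 13. Values did not overlap between the animals in these 4 genes, 16.0% of the members against 18.6% of all genes. Leaving out 1 biopsy ended both edgeR calls in most cases, while the differences stayed below 0: ATP2A1 was called in 3 and ACTG2 in 2 of the 8 fits, with log2 differences of -1.04 to -0.69 and -0.64 to -0.38. ATP2A1 lost its call without sites 12d, 7e or 6b of pig 14 or sites 12e or 6b of pig 13 (adjusted p from 0.0539 to 0.0823 by edgeR). ACTG2 lost it without sites 12d or 6b of pig 14 or any site of pig 13 (adjusted p from 0.0559 to 0.135 by edgeR). Scaling bears on this comparison, since TMM factors were above 1 in pig 13 and below 1 in pig 14. With library totals alone the median of all genes shifted to -0.21, ATP2A1 had -1.09 and ACTG2 -0.73.

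**Figure D5:**
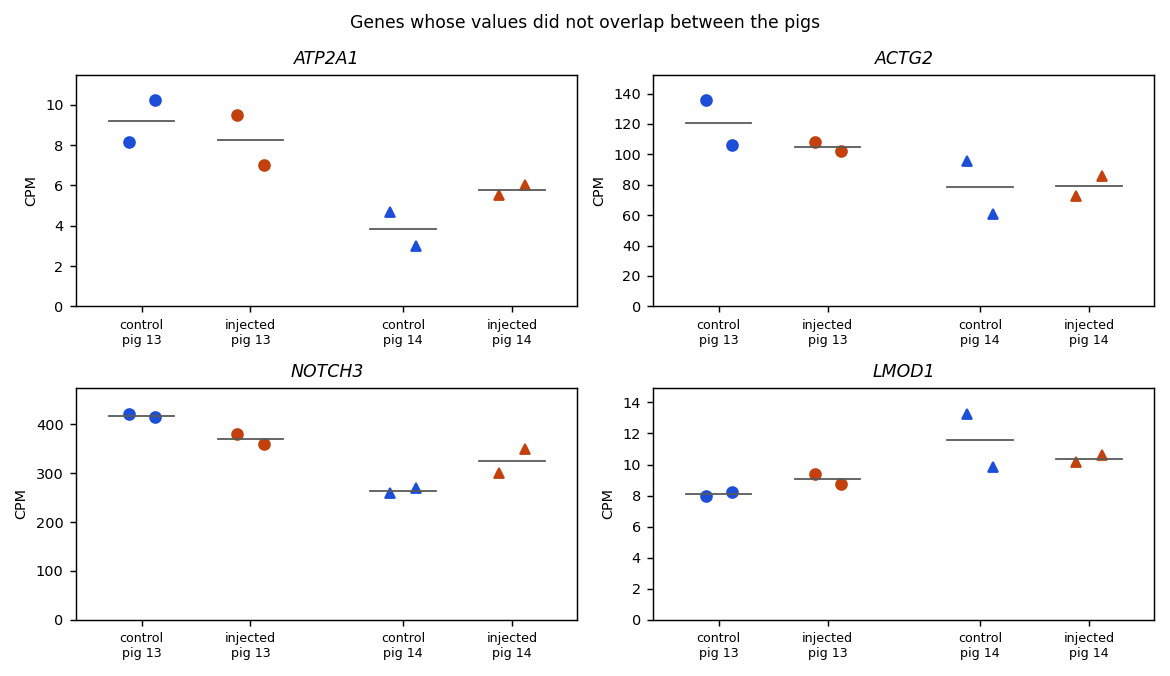
CPM of the 4 genes whose values did not overlap between pig 13 (circles) and pig 14 (triangles), at control (blue) and injected (orange) sites, with pair means as lines and axes from 0. ATP2A1, ACTG2 and NOTCH3 were higher in pig 13 and LMOD1 in pig 14.

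The wider muscle programmes were taken from lists of further genes. Of 35 other sarcomere genes 27 were tested, of 25 other genes of muscle calcium and energy supply 21, of 19 regulators and markers of muscle precursors and junctions 11, of 35 other smooth muscle genes 35 and of 22 other mural genes 21. Of these, 113 tested genes are reported here, each taken once. EdgeR called 0 and DESeq2 0 of them for injection, and by edgeR 2 higher and 0 lower had an unadjusted p under 0.05, or 1.77%, against 4.54% of all genes. Their median log2 fold changes were 0.052, 0.07, 0.15, 0.074 and 0.09 in that order. AVPR1A, the vasopressin receptor of vascular smooth muscle, was at 15.4, 14.1, 12.4 and 12.6 CPM at injected sites and 9.70, 11.9, 8.55 and 10.8 CPM at control sites, with no overlap between the groups and a log2 fold change of 0.41 ± 0.12 (SE, adjusted p = 0.895 by edgeR). The groups of JPH2, a protein that ties the reticulum to the cell membrane, did not overlap either (0.22 ± 0.12, SE), so such genes were 2 of 113, or 1.77%, against 2.07% of all genes. MYPN, a Z-disc protein, had 0.69 ± 0.31, MYOZ1 -0.77 ± 0.47, the phosphorylase kinase subunit PHKG1 0.21 ± 0.11, the receptor subunit CHRNB1 0.21 ± 0.15, the paired box factor PAX3 0.36 ± 0.30, CSRP1 0.21 ± 0.093 and the gap junction protein GJA4 0.44 ± 0.21 (SE).

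The list of muscle regulators and of precursor and junction markers was uneven in level: 8 of 19 genes had at most 10 counts in every biopsy, and 11 were high enough to test. Among the highest were MEF2C, at 34.7 to 53.9 CPM, and DMD, dystrophin, at 18.9 to 81.9 CPM. MYOD1 and MYF6, regulators of the muscle lineage, had at most 4 counts in any biopsy, PAX7, the satellite cell factor, at most 2, MYF5 at most 1, and CHRND, a subunit of the acetylcholine receptor at the nerve-muscle junction, had 0 in each biopsy. The muscle glycogen phosphorylase PYGM ran from 127 to 172 CPM and the carbonic anhydrase CA3 from 15.1 to 224 CPM. Which cells of the biopsies the RNA of PYGM and CA3 came from was not tested. Smooth muscle partners were high, with the filamin FLNA at 168, the light chain MYL9 at 39.1, the tropomyosin TPM2 at 34.6 and the mural receptor PDGFRB at 52.0 CPM per kilobase. FLNA and PDGFRB are also expressed by other cells of the dermis. Between the animals edgeR called 10 genes of these lists higher and 6 lower in pig 14, together 14.2% of those tested against 10.7% of all genes. Those higher were the embryonic myosin MYH3, MYBPC2, NRAP, CHRNB1, SGCA, MYL9, PRUNE2, the adrenergic receptor ADRA1A, STEAP4 and PTH1R. Those lower were MYPN, CSRP3, PHKG1, AMPD1, the muscle cadherin CDH15 and ADAP2. CDH15 had the largest of these differences, -2.37 ± 0.18 (SE, adjusted p = 6.03e-05 by edgeR), and ADRA1A had 1.01 ± 0.15 (adjusted p = 0.00341 by edgeR).

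The biopsies carried the defining transcripts of skin, and most marker sums of its other cell types ranged more widely between sites than the smooth muscle sum. The basal keratin KRT5 was at 3171 to 10850.3 CPM and the collagen COL1A1 at 8115 to 102531 CPM. Total counts ran from 28471089 to 36070107 per biopsy. The 12 fibroblast markers summed to 82272 to 196609 CPM at injected and 22572 to 199917 CPM at control sites, the 8 basal keratinocyte markers to 12441 to 16559 and 7642 to 22195 CPM, and the 8 differentiated keratinocyte markers found to 6382 to 13258 and 10173 to 25670.4 CPM. The 9 adipocyte markers found to 827 to 3269 and 765 to 3659 CPM. Hair follicle markers, which bear on arrector pili muscle, summed to 2673 to 4351 and 1085 to 4358 CPM. Red cell markers were at 5.93 to 23.3 CPM in pig 13 and 210.4 to 546 CPM in pig 14. Site 7b of pig 13 stood apart, with the lowest fibroblast sum (22572 CPM), the lowest hair follicle sum (1085 CPM) and the highest sums of basal and differentiated keratinocyte markers (22195 and 25670.4 CPM). It also had the lowest smooth muscle sum, but only 1349.7 against 1357 CPM at the other control of pig 13. The part of tissue makeup in the differences of single members was not tested. Without site 7b, the median change was 0.056 for smooth and 0.13 for skeletal genes, CSPG4 had 0.36 ± 0.12 (SE), and the interaction of DES was -1.37 ± 0.27 (SE).

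Smooth muscle genes tended to rank the 8 sites alike. Spearman's rho, computed here over 8 sites of 2 animals and given only as a description, had a median of 0.52 over the 36 pairs of smooth genes, with 29 above 0. It was 0.12 over the 55 pairs of skeletal genes, with 32 above 0. Over the 99 pairs of a skeletal with a smooth gene it was 0.0, with 49 above 0. No such value over pairs of all genes is given here, so whether the likeness is particular to smooth genes was not tested. Skeletal genes also have fewer counts, whose part in this was not tested. With MYH11, MYLK had a rho of 0.90 and ACTG2 of -0.67. With the other smooth genes, ACTG2 ran from -0.71 for SYNPO2 to -0.14 for TAGLN and 0.10 for ACTA2. The 5 genes outside the set most like the mean smooth profile, among those averaging at least 1 CPM, were PFN2, NKD2, ZNF106, MOB2 and HMGN3 (rho from 0.95 to 0.98). Those most like the mean skeletal profile were ABCB9, DMWD, RAB11FIP5, MROH6 and SRCIN1 (rho from 0.93 to 0.95). None of these is on a muscle list used here, and with 8 sites such values are the extremes among many genes.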

How the data were processed

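RNA of 8 whole skin biopsies was extracted with a lipid tissue kit and depleted of ribosomal RNA, per the labels' protocols. Raw read counts of Ensembl genes, as whole numbers, are what the authors deposited and what was used here. Their tools were STAR 2.5.1a, bcl2fastq and featureCounts 1.4.6-p5 of Subread, with the build Sscrofa11.1, per the submitters' processing notes, and positions are those in the files. The annotation release and strand setting are not given in these sources. Counts came from the table of all biopsies, 32388 rows for 31907 genes, with 425 repeated genes kept once. The counts matched those in the single files, of which that of pig 13 site 7b was cut short and not used. Exonic length is that of merged exons in the single files.

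Genes were filtered with filterByExpr (minimum count 10) and libraries scaled by TMM in edgeR 4.0.16 (R 4.3.3). The model held pig and treatment, with robust quasi-likelihood F tests; a second model added their interaction. A SE is the log2 fold change divided by the square root of F. DESeq2 1.42.0 was an alternative. The procedure was tested on simulated data. Pig is a block because the labels name the animal: deviations from group means correlated from 0.25 to 0.54 between sites of a pig and from -0.49 to -0.28 between pigs. The members and lists were chosen with earlier results of these data known. Values at all sites were given for the 5 skeletal, 5 smooth and 2 mural members highest per kilobase, DES, members called, the 2 with the smallest p in each class and any without overlap. Of the other lists, called genes and the 2 with the smallest p were named; PYGM, CA3, FLNA, MYL9, TPM2, PDGFRB, MEF2C, DMD and the muscle factors near 0 were chosen after their values were seen. One gene of the list of muscle regulators is not reported here and is left out of that list's counts and median.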

Additional observations from a re-analysis of the deposited data

Results flagged for a closer look

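In 4 genes a control site lay far from the other controls of its group, by the gap to its nearest neighbour as a share of the range (Dixon's criterion at 95%). TAGLN, the smooth muscle actin-binding protein, was at site 7e of pig 14 at 293 CPM, against 209.6 to 212 CPM at the other controls. ABCC9, a subunit of the vascular potassium channel, was at site 6b of pig 14 at 4.05 CPM, against 2.08 to 2.30 CPM at the other controls. TCAP, the titin cap, was at site 6b of pig 13 at 0.907 CPM, against 0.458 to 0.530 CPM at the other controls. MYL1, the alkali light chain, was at site 6b of pig 14 at 0.115 CPM, which is 3 counts, and at 0 at the other controls. With 0 at all other controls, any value above 0 passes this criterion, so the flag of MYL1 carries no information. With MYL1 counted, these are 4 of 52 groups of 4 sites examined, and chance gives about 1 in 20.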

How the results depend on the processing

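Under 13 alternatives (DESeq2, 2 other scalings, no filter on low counts, no replicate block, and each of 8 biopsies left out) 0 members were called for injection. Without the replicate block, that is with pig left out of the model, the medians were 0.16 for skeletal, 0.12 for smooth and -0.009 for mural genes, and LMOD1 had -0.017 in place of 0.0012. When single biopsies were left out, these medians ran over 0.07 to 0.27, 0.056 to 0.22 and -0.035 to 0.052. The members called between the pigs then numbered 0 to 3, against 2 with all biopsies. DESeq2, library totals and no filter each called 3, and DESeq2 called 1 interaction, that of DES, the cause of which was not tested. In 10 of 25 members the sign turned in at least 1 alternative, and their ranges over the biopsies left out were CASQ1 -0.0065 to 0.38, MYH7 -0.14 to 0.31, NEB -0.26 to 0.013, TNNT3 -0.12 to 0.44, ACTG2 -0.23 to 0.029, CALD1 -0.059 to 0.14, CNN1 -0.033 to 0.24, LMOD1 -0.052 to 0.13, NOTCH3 -0.026 to 0.13 and KCNJ8 -0.17 to 0.11. Over all genes, calls for injection numbered 7 higher and 0 lower by edgeR, 48 and 10 by DESeq2 and, with 1 biopsy left out, from 3 higher (without site 12d or 6b of pig 14) to 19 (without site 7b of pig 13). Calls between the pigs were 1270 higher and 863 lower in pig 14 with TMM, and 921 and 3936 with library totals. Interactions called with all biopsies were 0 by edgeR with the filter, 3 higher and 5 lower without it and 24 and 62 by DESeq2, and by edgeR 143 higher and 170 lower without site 6b of pig 13. Few counts limit MYLPF, TNNT3, TCAP and MYL1.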
